A study of Mus musculus with 4 samples.

Results

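The NR4A, EGR and TOX transcription factors were followed in mouse CD8 T cells that carried extra BATF. The 8 genes were taken by name from the table of 24312 genes: Nr4a1, Nr4a2 and Nr4a3, Egr1, Egr2 and Egr3, and Tox and Tox2. All 8 were listed, and 7 passed the filter on low counts. BATF cells were P14 CD8 T cells transduced with the retrovirus MIG-BATF, and MIG cells were the same kind of cells with the empty vector MIG (MSCV-IRES-GFP). Each group had 2 libraries. P14 cells carry a transgenic receptor for the gp33 peptide of lymphocytic choriomeningitis virus, and both groups were on a C57BL/6 background. Both were stimulated with 100 ng/ml gp33 for 1 day, spin transduced, and left in the stimulating medium for 1 more day. Both then spent 2 days in 10 ng/ml IL-2, were sorted as CD8+ GFP+, and spent 2 final days in 1 ng/ml IL-2 without added peptide. The retrovirus drives BATF in whatever cells kept the vector. No label says whether the libraries of a group came from separate mice, so p-values rest on a spread that may be technical.

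NR4A proteins are orphan nuclear receptors, EGR proteins are zinc finger factors, and TOX proteins bind DNA through an HMG box. T cell receptor signals induce the NR4A and EGR genes quickly, through calcineurin and NFAT and through the RAS and ERK cascade. In mouse CD8 T cells that stay under antigen, NFAT also induces Tox, and TOX and NR4A factors are needed for the exhausted state. BATF is an AP-1 factor that acts with JUN partners and with IRF4. The comparison addresses whether these factors differed in mRNA when BATF was raised in cells rested in IL-2.

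Library totals were 19004726 and 21835962 fragments in BATF and 24795707 and 20354627 in MIG. Batf stood at 1342 and 934 CPM (fragment counts scaled to library size) in BATF and at 36.1 and 26.5 CPM in MIG, so the labels held for the overexpressed gene. The 8 CD8 T cell markers, led by Thy1 and Lck, summed to 4249 and 4742 CPM in BATF and to 5138 and 5152 CPM in MIG. Their log2 fold changes of BATF over MIG ran from −0.46 to −0.04, with a median of −0.19, so 0 were positive. At unadjusted p under 0.05 in edgeR, 0 of them were higher and 3 lower in BATF, beside 870 higher and 532 lower of 13008 tested genes. B cell markers summed to at most 13.2 CPM in BATF and 18.1 CPM in MIG, nearly all of it Cd79b. Myeloid and dendritic markers summed to at most 46.1 CPM in BATF and 29.6 CPM in MIG, mostly Itgax and Itgam, with Lyz2 at or under 0.340 CPM. Among CD4 and regulatory T cell markers Zbtb7b led, with 44.2 and 34.9 CPM in BATF and 23.0 and 17.9 CPM in MIG, with Cd4 at 0.490 to 0.791 CPM and Foxp3 at 0.896 to 2.09 CPM. Markers of NK and gamma-delta T cells, among them Zbtb16 and Sox13, summed to at most 2.82 CPM. No marker gene passed in edgeR, but Zbtb7b (adjusted p = 0.000138) and Itgax (0.00247) were called higher in BATF by DESeq2, and also by edgeR with no filter on low counts (0.0041 and 0.0125). Zbtb7b was also called with any 1 library left out, and Itgax without MIG library 2. No listed marker was at 0 in all 4 libraries, and the part of these cells in the results was not tested. In bulk RNA, fewer cells with a transcript and less of it per cell cannot be told apart.

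None of the 7 tested factors passed the test between BATF and MIG cells. The transcripts were scarce except for Egr1, and every interval of the fold change held 0. Tox2, the factor under the filter, gave 16 fragments in BATF against 1 in MIG, of which 14 came from a single BATF library. Over all genes, the quasi-likelihood test of edgeR, with p-values adjusted after Benjamini and Hochberg, called 142 of 13008 (1.09%), 115 higher (0.884%) and 27 lower (0.208%) in BATF. Among the 7 factors it called 0 at an adjusted p under 0.05 and also 0 at an unadjusted p under 0.05. At the unadjusted threshold 870 of all tested genes were higher and 532 lower in BATF. DESeq2, which called 2.97% of its genes, called 0 of the factors. Other settings called 1.12% of all genes with DESeq2's size factors, 1.53% with no filter, 0.349% and 0.476% in limma with pseudocounts of 1 and 0.1, and 11.6% with replicate numbers as blocks. Of the factors they called 0, but for Egr1 under the block. The median log2 fold change was 0.23 over the 7 factors and −0.01 over all tested genes. Nr4a2, Egr1, Egr2 and Egr3 had positive values and Nr4a1, Nr4a3 and Tox negative ones.

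**Figure D1:**
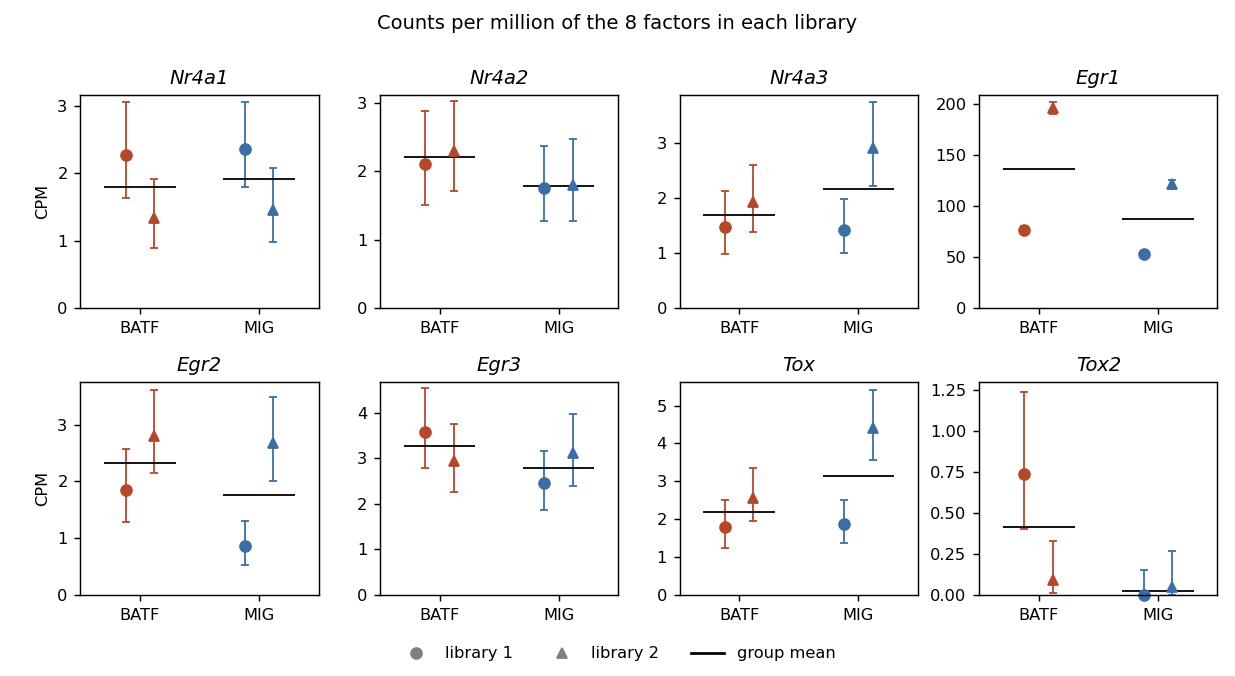
CPM (vertical axes, from 0, a scale of its own for each gene) of the 8 factors in the BATF libraries (left, red) and the MIG libraries (right, blue). Points are libraries with their 95% Poisson counting interval and lines are group means; Nr4a2 and Tox2 are the factors whose groups do not overlap, and Egr1 is the one above 5 CPM.

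The levels of different genes were compared per transcript length, as the deposited FPKM. Egr1 was first in every library, with 25.8 and 67.3 FPKM in BATF and 18.4 and 40.6 FPKM in MIG. It made up 84.6% and 93.6% of the summed FPKM of the 8 factors in BATF, and 83.2% and 88.7% in MIG. The other 7 lay between 0 and 1.61 FPKM, below the median of 9.07 FPKM over all tested genes. Their order changed from library to library, since Nr4a1 was second in BATF library 1 and MIG library 1, Egr2 in BATF library 2 and Tox in MIG library 2. In BATF, mean FPKM values of these neighbours overlapped within their spread: Egr3 had 0.865 ± 0.110, Egr2 0.825 ± 0.250, Tox 0.808 ± 0.213, Nr4a1 0.774 ± 0.276 and Nr4a2 0.754 ± 0.0548 FPKM (SD, n = 2). In MIG the same values were 0.737 ± 0.103 for Egr3, 0.621 ± 0.439 for Egr2, 1.16 ± 0.634 for Tox, 0.830 ± 0.301 for Nr4a1 and 0.611 ± 0.00702 for Nr4a2. There the spreads overlapped except between Egr3 and Nr4a2. Nr4a3 had 0.342 ± 0.105 FPKM in BATF and 0.484 ± 0.153 in MIG, and Tox2 came last in 3 of the 4 libraries. In BATF library 1 Nr4a3 came last instead, with 0.267 FPKM beside 0.487 FPKM for Tox2.

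Nr4a1 (NUR77) is the family member used most widely as a reporter of receptor signalling in mouse T cells. It had 43 and 29 fragments, or 2.27 and 1.33 CPM, in BATF, against 58 and 30 fragments, or 2.37 and 1.46 CPM, in MIG. The groups overlapped almost entirely, and library 1 was the higher one in both. The log2 fold change was −0.11 ± 0.38 (SE), with a 95% interval from −1.02 to 0.81 (edgeR adjusted p = 0.977). Nr4a2 (NURR1) had 2.11 and 2.30 CPM in BATF against 1.76 and 1.80 CPM in MIG, and its groups did not overlap. Groups failed to overlap in 38.7% of all tested genes, and among the 7 tested factors Nr4a2 was the only one. Its log2 fold change of 0.31 ± 0.26 (SE) stayed short of the threshold (interval −0.31 to 0.93, edgeR adjusted p = 0.822). Nr4a3 (NOR1) had 1.48 and 1.93 CPM in BATF against 1.43 and 2.91 CPM in MIG. MIG library 2 stood above the other 3 libraries, and the log2 fold change was −0.33 ± 0.40 (SE; interval −1.28 to 0.62, edgeR adjusted p = 0.906). The 3 NR4A genes together summed to 1.95 and 1.79 FPKM in BATF and 2.03 and 1.82 FPKM in MIG.

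The promoters of the NR4A genes are shown because the BATF question concerns factors of the AP-1 and CRE-binding kind. The stretches come from RefSeq (GRCm38.p6, a later build than the mm9 named for the deposited table) and run 5′ to 3′ on the gene's strand, up to 250 bases before the transcript start. Windows of 5 of the 8 factors were searched, those of Nr4a1, Nr4a2, Nr4a3, Egr2 and Tox2. Egr1 was left out of this search, and no window was found for Egr3 and Tox. The Nr4a3 window lies before a transcript start that is 152 bases from the start of the principal transcript. The part of the Nr4a3 window under an annotated exon is left out. Capitals mark the CRE half-site TGACG and the EGR motif GCGNGGGCG, on either strand.
Nr4a1, chr15:101266596-101266845, plus strand: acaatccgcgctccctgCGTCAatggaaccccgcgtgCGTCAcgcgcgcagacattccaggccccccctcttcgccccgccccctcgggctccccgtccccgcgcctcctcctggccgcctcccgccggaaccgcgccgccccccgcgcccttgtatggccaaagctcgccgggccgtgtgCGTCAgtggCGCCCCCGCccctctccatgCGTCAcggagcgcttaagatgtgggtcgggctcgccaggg
Nr4a2, chr2:57124004-57124253, minus strand: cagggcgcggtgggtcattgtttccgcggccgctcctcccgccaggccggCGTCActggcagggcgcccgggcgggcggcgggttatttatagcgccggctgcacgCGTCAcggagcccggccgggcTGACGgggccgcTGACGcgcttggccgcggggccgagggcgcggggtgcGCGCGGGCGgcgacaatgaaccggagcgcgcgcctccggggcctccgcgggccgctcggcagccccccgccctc
Nr4a3, chr4:48045055-48045152, plus strand: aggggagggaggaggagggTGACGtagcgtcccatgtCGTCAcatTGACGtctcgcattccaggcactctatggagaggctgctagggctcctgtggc
Each of the 250-base windows of Nr4a1, Nr4a2 and Nr4a3 held 4 CRE half-sites. For Nr4a3, 3 lie in the printed stretch, and the one that began 147 bases before the start lies in the exon part left out. Of 32817 promoter windows of the same length, 17.7% held at least 1 half-site. The share of windows with 4 was not counted, so 17.7% is no background for 4 in a window. The shares of the other motifs likewise count windows with at least 1 match. In Nr4a1 all 4 were part of the AP-1-like motif TGCGTCA, which 1.74% of windows held, and they began 235, 215, 71 and 42 bases before the start (counted from the motif's first base). Nr4a1 and Nr4a2 also held 1 EGR motif each, against 4.70% of windows. The AP-1 motif TGANTCA (6.75% of windows), the full CRE TGACGTCA (1.55%), the NR4A motif AAAGGTCA (1.34%) and the BATF-IRF composites, TGANTCA right after GAAA (0.101%) or after TTTC and a gap of 4 bases (0.0975%), had no match in the windows of the 5 factors.

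Egr1, an immediate early factor that follows ERK activity, was the abundant member. It had 1446 and 4254 fragments, or 76.2 and 195 CPM, in BATF, against 1292 and 2492 fragments, or 52.8 and 121 CPM, in MIG. The groups overlapped, because MIG library 2 lay above BATF library 1. The log2 fold change was 0.65 ± 0.49 (SE), with an interval from −0.52 to 1.82 (edgeR adjusted p = 0.784). The difference between the libraries of a group was larger than that between groups: library 2 held 2.56 times as much Egr1 as library 1 in BATF and 2.29 times as much in MIG, and the fold change between groups was 1.57. Without BATF library 1 the log2 fold change was 1.18 and passed (edgeR adjusted p = 0.00274), and without MIG library 2 it was 1.36 and passed (0.0310). Without BATF library 2 it turned to −0.18 (0.9997) and without MIG library 1 it was 0.18 (0.910). In these fits the variance of the lone library is borrowed from the other group. Over all genes they called 2.00% without BATF library 1, 1.79% without BATF library 2, 1.79% without MIG library 1 and 4.27% without MIG library 2. The pooled SD of log2 CPM within groups was 0.90 for Egr1, against a median of 0.13 over all tested genes. Of the 4301 tested genes that averaged 50 CPM or more, 1 had a larger SD.

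Egr2 and Egr3, which restrain T cell receptor responses in mouse T cells, were rare. Egr2 had 1.85 and 2.80 CPM in BATF against 0.858 and 2.67 CPM in MIG. MIG library 1 was the low one, with 21 fragments, and the groups overlapped. The log2 fold change was 0.43 ± 0.52 (SE; interval −0.81 to 1.66, edgeR adjusted p = 0.907), and it turned to −0.19 without MIG library 1. Egr3 had 3.59 and 2.94 CPM in BATF against 2.45 and 3.11 CPM in MIG, with overlapping groups. Its log2 fold change was 0.23 ± 0.25 (SE; interval −0.37 to 0.83, edgeR adjusted p = 0.889). The EGR genes without Egr1 summed to 1.59 and 1.79 FPKM in BATF and 0.975 and 1.74 FPKM in MIG. The promoter of Egr2 is shown for the CArG box, the site of SRF, which 1.47% of windows held and which began 72 bases before the start. Capitals mark the CArG box and 2 CRE half-sites.
Egr2, chr10:67537619-67537868, plus strand: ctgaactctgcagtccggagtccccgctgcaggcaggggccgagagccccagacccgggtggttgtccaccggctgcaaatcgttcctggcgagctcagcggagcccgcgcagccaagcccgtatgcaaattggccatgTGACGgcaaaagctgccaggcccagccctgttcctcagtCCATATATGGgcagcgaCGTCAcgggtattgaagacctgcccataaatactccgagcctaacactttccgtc

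Tox, which sustains exhausted CD8 T cells in mice, had 34 and 56 fragments, or 1.79 and 2.57 CPM, in BATF, against 46 and 91 fragments, or 1.88 and 4.42 CPM, in MIG. MIG library 2 was the highest and the other 3 libraries were close to each other. The log2 fold change was −0.51 ± 0.44 (SE), with an interval from −1.54 to 0.53 (edgeR adjusted p = 0.832). It turned to 0.21 without MIG library 2 and stayed short of the threshold with each library left out. Tox2, a relative of Tox that is high in follicular helper T cells, had 14 and 2 fragments in BATF and 0 and 1 in MIG. This was 0.738 CPM (95% Poisson interval 0.404 to 1.24) and 0.0919 CPM (0.0111 to 0.332) in BATF. In MIG it was 0 CPM (0 to 0.151) and 0.0485 CPM (0.00123 to 0.270). The limit of 3 fragments used here for a count of 0 stood at 0.123 CPM in that MIG library. These intervals cover counting error only. BATF library 1 alone lay clear of the others. Over the summed fragments the ratio of BATF to MIG was 17.7, with an exact binomial 95% interval for counting error from 2.75 to 743. Without BATF library 1 it was 4.14 (0.216 to 244). Tox2 was not tested, and with no filter on low counts edgeR gave an adjusted p of 0.242.

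**Figure D2:**
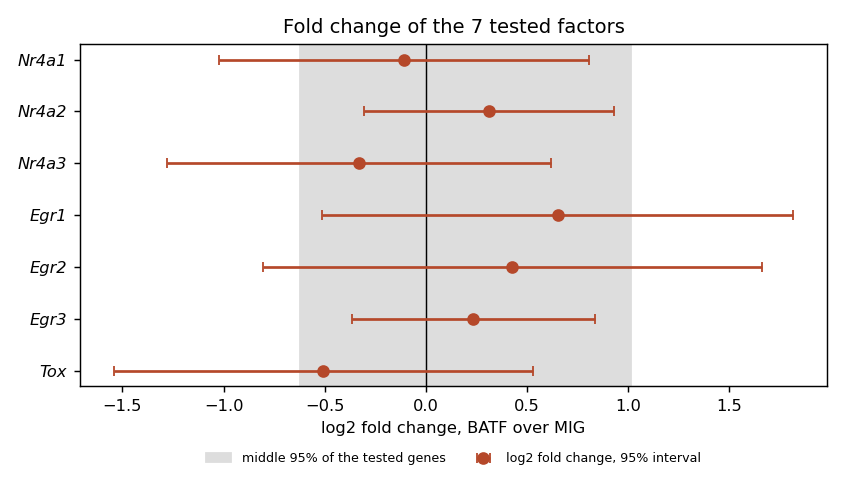
Log2 fold change of BATF over MIG (horizontal axis) for the 7 tested factors, with 95% intervals from edgeR's quasi-likelihood fit; the grey band holds the middle 95% of the tested genes, from −0.62 to 1.01. All 7 intervals cross 0, and those of Nr4a2 and Egr3 lie within a difference of 1 on the log2 scale.

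The intervals state how much these data can say. Those of Nr4a2 and Egr3 stayed within 1 on the log2 scale, that is within a 2-fold difference in either direction. The other 5 reached past a 2-fold difference in at least 1 direction, so such differences could not be detected or set aside at this depth and spread. Apart from Egr1, the factors had under 100 fragments in every library. With 1 library left out, edgeR called 1 factor without BATF library 1 and 1 without MIG library 2, Egr1 both times, and 0 without BATF library 2 or MIG library 1.

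**Figure D3:**
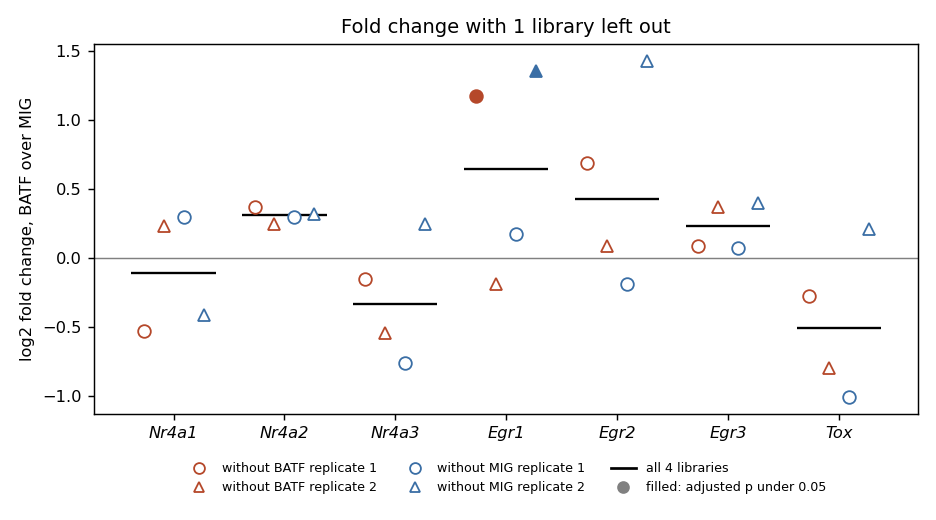
Log2 fold change of BATF over MIG (vertical axis) for each tested factor, with all 4 libraries (line) and with 1 library left out (points; red for a BATF library, blue for a MIG library, circles for library 1, triangles for library 2, filled where the adjusted p was under 0.05). Egr1 ranges from −0.18 to 1.36 and Egr2 from −0.19 to 1.43, while Nr4a2 stays between 0.25 and 0.37.

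Egr1, Egr2 and Tox varied over at least 1 log2 unit between libraries, and the tested genes with the most similar pattern were sought among the 9361 genes that averaged 5 CPM or more. Likeness was the root mean square difference of log2 CPM, centred for each gene, over the 4 libraries. The nearest to Egr1 was Dusp6, a phosphatase of ERK, at a distance of 0.07 against a median of 0.72 over all candidates. Dusp6 had 19.8 and 53.3 CPM in BATF and 12.6 and 31.7 CPM in MIG. Tnfsf11, which encodes the cytokine RANKL, followed at 0.09, with 9.23 and 25.04 CPM in BATF and 5.92 and 13.2 CPM in MIG. The nearest to Egr2 were Cpd, a carboxypeptidase, at 0.17 and Amd2, an adenosylmethionine decarboxylase, at 0.22. Amd2 has a near-identical relative, so its counts are uncertain. The nearest to Tox were Tiparp, an ADP-ribosyltransferase, at 0.12 and Dapk2, a death-associated kinase, at 0.14. Tiparp had 24.7 and 34.0 CPM in BATF and 29.3 and 52.9 CPM in MIG. With 4 libraries many genes share a pattern by chance, and these distances are a description.

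Egr1 was at least 2-fold higher in library 2 than in library 1 in both groups, as were 37 (0.284%) of the tested genes. Of 28 tested immediate early genes, 16 were higher in library 2 in both groups and 0 by 2-fold, against 30.4% of all tested genes that were higher in both. Their median log2 difference between library 2 and library 1 was 0.18 in BATF and 0.14 in MIG, and over all tested genes it was −0.0018 in BATF and −0.0035 in MIG. Fos, chosen after its values were seen, had 2.64 and 4.55 CPM in BATF and 1.31 and 3.83 CPM in MIG. Of the 7 tested factors 5 (71.4%) were higher in library 2 in both groups: Egr1, Nr4a2, Nr4a3, Egr2 and Tox. For Nr4a2 the ratio of library 2 to library 1 was only 1.09 in BATF and 1.02 in MIG. Nr4a1 was higher in library 1 in both groups, and Egr3 differed in direction. The library numbers only name libraries.

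**Figure D4:**
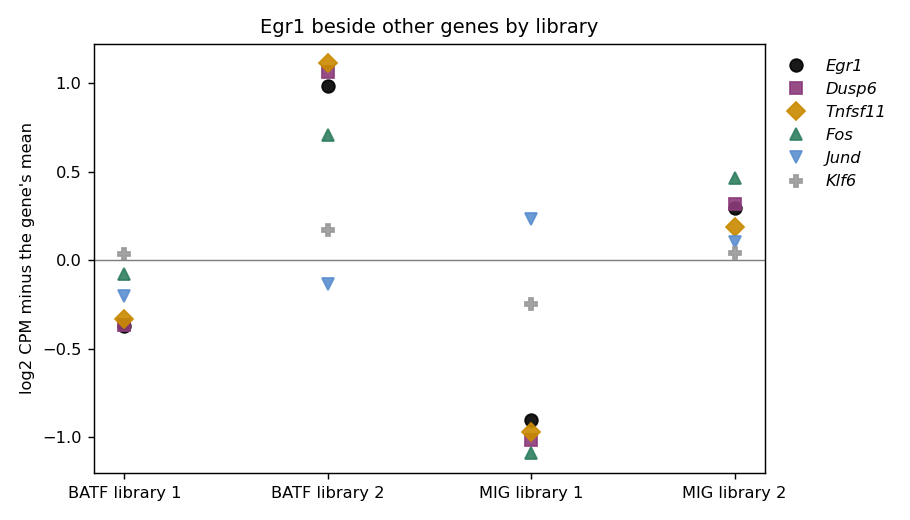
Log2 CPM minus the gene's mean (vertical axis) in each library for Egr1, for Dusp6 and Tnfsf11 as the genes most like it, and for the immediate early genes Fos, Jund and Klf6. Egr1, Dusp6 and Tnfsf11 lie close together in every library, between −1.01 and 1.11, and Jund and Klf6 stay within 0.25 of their means.

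The genes around the 8 factors were counted from lists of pathway members. Over all 13008 tested genes, 870 were up and 532 down in edgeR at unadjusted p under 0.05, and DESeq2 called 2.97% of its genes. Of 5 tested relatives and partners, 0 passed (1 up and 0 down at unadjusted p under 0.05, 0 in DESeq2), with a median log2 fold change of 0.20. Nab1 and Nab2 encode corepressors that bind EGR proteins. Nab1 had 115 and 105 CPM in BATF against 83.8 and 94.6 CPM in MIG (log2 fold change 0.30, edgeR adjusted p = 0.286), and Nab2, chosen after its values were seen, had 14.6 and 19.5 CPM in BATF against 13.6 and 13.7 CPM in MIG. Tox4, a broadly expressed TOX relative, had 125 and 121 CPM in BATF against 133 and 122 CPM in MIG. Egr4, Tox3 and Rxrg stayed under the filter, at or under 0.409 CPM. With 1 library left out, the log2 fold change of Nab1 ranged from 0.217 to 0.381.

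Upstream of the factors, 14 calcineurin and NFAT genes were tested and 0 passed (2 up and 1 down at unadjusted p under 0.05, 0 in DESeq2), with a median of −0.03. Nfatc3 had 347 and 337 CPM in BATF against 344 and 371 CPM in MIG, and Nfatc2 had 226 and 207 CPM in BATF against 186 and 181 CPM in MIG. Of 16 genes of RAS, ERK and SRF, 0 passed (0 up and 1 down at unadjusted p under 0.05, 0 in DESeq2), with a median of 0.03. Of all 13008 tested genes, 870 were up and 532 down at that threshold, and DESeq2 called 2.97% of its genes. Rasgrp1, which activates RAS below the T cell receptor, had 300 and 364 CPM in BATF against 291 and 350 CPM in MIG. In fits with 1 library left out, the log2 fold change ranged from −0.115 to −0.0146 for Nfatc3 and from 0.177 to 0.302 for Nfatc2. The values of both lists are mRNA levels and say nothing of phosphorylation or of nuclear NFAT.

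Among 28 tested immediate early genes 0 passed (4 up and 2 down at unadjusted p under 0.05, 2 higher in DESeq2), with a median of 0.06. Of all 13008 tested genes, 870 were up and 532 down at that threshold, and DESeq2 called 2.97% of its genes. Jund, the most abundant, had 865 and 905 CPM in BATF against 1170 and 1069 CPM in MIG (log2 fold change −0.34, edgeR adjusted p = 0.162), and Klf6 had 214 and 235 CPM in BATF against 176 and 215 CPM in MIG. Nfil3 and Cd69 were chosen after their values were seen. Nfil3, a leucine zipper repressor, had 77.3 and 102 CPM in BATF against 42.3 and 51.8 CPM in MIG and just missed the threshold (log2 fold change 0.94, edgeR adjusted p = 0.0554). DESeq2 called Nfil3 higher (adjusted p = 6.3e-06), as did edgeR with no filter on low counts (0.0015), and limma on log2(FPKM + 1) did not (0.102). Cd69, an early activation antigen, had 16.1 and 24.4 CPM in BATF against 26.4 and 54.5 CPM in MIG (log2 fold change −0.99, edgeR adjusted p = 0.329). In fits with 1 library left out, the log2 fold change ranged from 0.717 to 1.125 for Nfil3 and from −1.42 to −0.388 for Cd69.

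Of 20 exhaustion genes tested, Havcr2, Lag3 and Prdm1 rose, 0 fell and 17 did not pass, where edgeR called 1.09% of all tested genes. At unadjusted p under 0.05 there were 7 up and 2 down, beside 870 up and 532 down of all 13008 tested genes. DESeq2 called 6 higher and 0 lower, beside 2.97% of its genes. EdgeR with no filter called 8, beside 1.53% of all genes, and the median log2 fold change of the list was 0.06. Havcr2, the receptor TIM-3, had 7.65 and 12.7 CPM in BATF against 1.10 and 1.84 CPM in MIG (log2 fold change 2.80, edgeR adjusted p = 0.0229). Lag3, a receptor for MHC class II, had 86.6 and 82.2 CPM in BATF against 40.3 and 35.4 CPM in MIG (log2 fold change 1.16, edgeR adjusted p = 0.00856). Prdm1, which encodes BLIMP-1, had 38.7 and 31.3 CPM in BATF against 15.9 and 11.5 CPM in MIG (log2 fold change 1.35, edgeR adjusted p = 0.0279). In limma on log2(FPKM + 1), 1 gene of the list was called, and Havcr2 (adjusted p = 0.0626) and Prdm1 (0.0736) missed the threshold. The most abundant genes of the list did not pass in edgeR: Tcf7 (TCF-1) had 232 and 207 CPM in BATF against 508 and 318 CPM in MIG (adjusted p = 0.123 in edgeR), and Ctla4 had 103 and 92.1 CPM in BATF against 60.5 and 43.1 CPM in MIG (0.0622). DESeq2 called Ctla4 (adjusted p = 3.07e-05) and not Tcf7 (0.218), and edgeR with no filter called both (0.0023 for Ctla4 and 0.0056 for Tcf7). Pdcd1 (PD-1), chosen after its values were seen, had 18.7 and 38.4 CPM in BATF against 8.25 and 11.5 CPM in MIG (edgeR adjusted p = 0.123, and 0.0044 with no filter). Neither DESeq2 (adjusted p = 0.1275) nor limma on log2(FPKM + 1) (0.207) called Pdcd1. In fits with 1 library left out, the log2 fold change of Havcr2 ranged from 2.385 to 3.198. That of Lag3 ranged from 1.058 to 1.257, that of Prdm1 from 1.135 to 1.614 and that of Tcf7 from −1.219 to −0.533.

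Of 16 anergy and tolerance genes tested, 1 rose in edgeR, 0 fell and 15 did not pass, again beside 1.09% of all tested genes. At unadjusted p under 0.05 there were 3 up and 2 down, beside 870 up and 532 down of all 13008 tested genes. DESeq2 called 2 higher and 1 lower, beside 2.97% of its genes, and the median log2 fold change of the list was 0.05. Nrgn (neurogranin), a calmodulin-binding protein, had 5.91 and 6.07 CPM in BATF against 2.08 and 1.60 CPM in MIG (log2 fold change 1.69, edgeR adjusted p = 0.0263). Dgka and Dgkz encode diacylglycerol kinases that limit RAS activation. Dgka had 346 and 284 CPM in BATF against 456 and 314 CPM in MIG, and Dgkz had 310 and 257 CPM in BATF against 340 and 241 CPM in MIG. With 1 library left out, the log2 fold change ranged from 1.513 to 1.902 for Nrgn and from −0.542 to 0.0066 for Dgka.

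**Figure D5:**
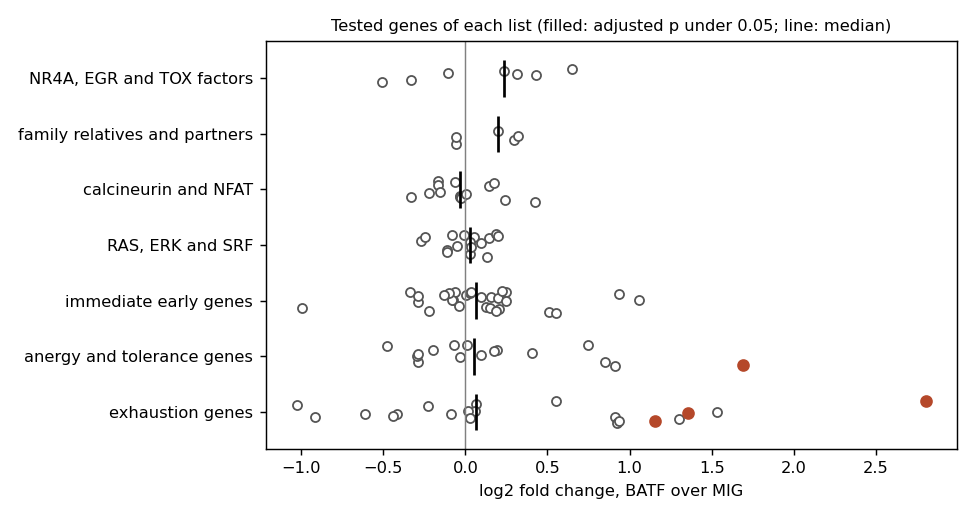
Log2 fold change of BATF over MIG (horizontal axis) for the tested genes of each list (rows; points are genes, spread vertically for sight, lines are medians, filled points passed at an adjusted p under 0.05). The factors in the top row have no filled point; Nrgn and, in the bottom row, Lag3, Prdm1 and Havcr2 do.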

How the data were processed

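Poly(A) RNA from 2 BATF and 2 MIG samples was sequenced. The submitters' processing notes name TopHat2 2.1.1, Cufflinks 2.2.2, Cuffdiff and mm9; for annotation and strandedness the sources used here give nothing. Per the file headers, the deposited table is Cuffdiff's, with a row for each gene in each library. Its estimated counts are fragments assigned to a gene by the authors before scaling, and 97.6% were whole (equality to 0 decimals). The deposited scaled fragment signal was used only to check the authors' factors, 1.11 and 0.986 in BATF and 0.889 and 1.02 in MIG. The deposited FPKM, per the file headers, divides scaled fragments by transcript length. The table numbers replicates 0 and 1, read here as 1 and 2 of the titles, so numbers only name libraries.

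Rounded estimated counts were tested with edgeR 4.0.16 under R 4.3.3 (filterByExpr, TMM factors 0.988 to 1.01, glmQLFit, glmQLFTest, no covariate), with Benjamini-Hochberg adjustment over 13008 genes and a threshold of 0.05. CPM use TMM-scaled totals. The SE is the unshrunk coefficient over the square root of F. Scripts were tested on simulated data. Libraries of a group differed beyond counting noise (chi-square per gene 9.49 in BATF and 17.7 in MIG). The smallest two-sided p that permuting these libraries can give is 0.333, so no such test was run. Alternatives were DESeq2 1.42.0, its size factors, no filter, limma 3.58.1 on log2(FPKM + 1) and log2(FPKM + 0.1) over genes with a mean of at least 1 FPKM, the replicate number as a block, TPM for family sums, and each library left out.

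The 8 factors and the 11 lists (137 entries, 136 listed) were chosen with earlier results of these data known. Named genes were the 8 factors, list members that passed, the 2 most abundant tested members of each list, and the 2 nearest patterns; 1 gene that this rule names is not reported here. Promoter sequences are RefSeq's.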

Additional observations from a re-analysis of the deposited data

How the results depend on the processing

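Every tested factor stayed below the threshold with DESeq2's size factors, DESeq2's test and no filter on low counts. Egr1 alone was high enough for limma, and it did not pass there. Over all genes edgeR called 142 genes, DESeq2 349, edgeR with no filter 349, limma 36 with a pseudocount of 1 and 49 with 0.1, and edgeR with 1 library left out 248 to 589, of which 116 to 142 were among the 142. With 1 library left out, 0 to 1 factors were called. Replicate numbers are shared by the groups, but with 2 pairs and no label behind them they are not taken to pair the libraries (same-numbered libraries deviated together with a correlation of 0.181 across genes). With the number as a block, which leaves 1 residual degree of freedom, 1504 genes and 1 factor (Egr1, log2 fold change 0.62, edgeR adjusted p = 6.28e-13) were called.

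Signs turned in fits with 1 library left out, and the cause was not tested. Over these 4 fits the log2 fold change ranged from −0.53 to 0.30 for Nr4a1, −0.76 to 0.25 for Nr4a3, −0.18 to 1.36 for Egr1, −0.19 to 1.43 for Egr2 and −1.004 to 0.21 for Tox. Nr4a2 and Egr3 kept their sign. Among other named genes it ranged from −0.060 to 1.27 for Amd2, −0.32 to 1.22 for Cpd, −0.54 to 0.0066 for Dgka, −0.27 to 0.24 for Dgkz, −0.16 to 1.53 for Dusp6, −0.081 to 1.45 for Fos, −1.06 to 0.50 for Itgam, −0.18 to 0.051 for Lck, −0.096 to 0.19 for Rasgrp1, −0.75 to 0.34 for Sox13, −0.043 to 1.53 for Tnfsf11 and −0.13 to 0.011 for Tox4. The log2 ratio of summed TOX FPKM, −0.12, ranged from −0.60 to 0.61 with 1 library left out. The EGR ratio, 0.64, ranged from −0.17 to 1.31 and the NR4A ratio, −0.042, from −0.12 to 0.042, so all 3 family ratios turned sign with some library left out. Counts under 100 fragments limit 7 of the 8 factors.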

Other observations

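Of the 20 tested exhaustion genes, 2 were at least 2-fold higher in library 2 than in library 1 in both groups, as Egr1 was. Eomes, a T-box factor of memory and exhausted CD8 T cells, had 7.17 and 19.2 CPM in BATF and 15.5 and 38.6 CPM in MIG. Cd244, the receptor 2B4, had 3.74 and 11.2 CPM in BATF and 5.23 and 15.1 CPM in MIG. Both were picked out after their values were seen. Tnfrsf9, the costimulatory receptor 4-1BB and a gene of the anergy and tolerance list, was also picked out after its values were seen. It had 40.1 and 95.4 CPM in BATF and 27.9 and 47.5 CPM in MIG. The ratio of library 2 to library 1 was 2.38 in BATF and 1.70 in MIG, so Tnfrsf9 was not 2-fold higher in both groups.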
